A study of Mus musculus with 12 samples.

Results

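The reactive gliosis genes described here are Gfap, Vim, Nes, Lcn2, Serpina3n, A2m, Cd44, S100a6, Cp and Lad1. They were taken by symbol from the table of read counts per gene, where all 10 were found among 50559 genes, and all 10 passed the filter on low counts in every comparison. RNA was measured in whole retinas of wild-type C57BL6/J mice at P28, in 12 libraries that form 4 groups of 3. IgG mice received 30 µg of rat IgG isotype at P1, and APB5 mice received 30 µg of the rat monoclonal antibody APB5, which blocks the mouse receptor PDGFRβ and so keeps pericytes from reaching the growing retinal capillaries. IgG+Mino and APB5+Mino mice received the same antibodies and then minocycline, an antibiotic that dampens microglial activation, by daily intraperitoneal injection from P5 to P27 at 45 mg/kg. The antibody was given to the whole animal. Each group had 3 mice and 3 libraries, so P values measure the spread between mice and libraries together, and the labels do not say which retinas went into a library.

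Reactive gliosis is the response of retinal astrocytes and Müller cells to injury, ischemia or inflammation. In it, Müller cells, which hold little GFAP when the retina is healthy, assemble GFAP and vimentin filaments along their length, and both kinds of glia release acute-phase proteins and protease inhibitors. Cytokines of the interleukin-6 family acting through STAT3, and tumor necrosis factor acting through NF-κB, are well-known inducers. In bulk retinal RNA, more cells of a type and more RNA per cell cannot be told apart.

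The sequences before the start sites are shown because all 10 genes had higher fitted values in APB5 than in IgG. The 250 bases before the start of each gene's Ensembl canonical transcript (GENCODE vM39, genome GRCm39, the build the authors used) were searched on both strands for the STAT motif TTCNNNGAA and the AP-1 motif TGANTCA, both of which read the same on either strand. No match of one overlapped a match of the other. A2m held the STAT motif 3 times, starting 154, 89 and 58 bases before the transcript, and was the only member of the 10 with it, against 7.7% of 21770 windows of protein-coding genes. Cp was the only member with the AP-1 letters as searched, starting 49 bases before the transcript, against 6.17% of windows. Its match reads TGATTCA, with T where the search allowed any base. No match means only that these letters are not in this window. Shown are both genes with a match, Gfap as the defining gene of gliosis, and Lad1 as the gene called with all 6 libraries of a contrast, 5′ to 3′ on the strand of the gene, with the motifs in capitals.
A2m, plus strand, chr6:121612928-121613177: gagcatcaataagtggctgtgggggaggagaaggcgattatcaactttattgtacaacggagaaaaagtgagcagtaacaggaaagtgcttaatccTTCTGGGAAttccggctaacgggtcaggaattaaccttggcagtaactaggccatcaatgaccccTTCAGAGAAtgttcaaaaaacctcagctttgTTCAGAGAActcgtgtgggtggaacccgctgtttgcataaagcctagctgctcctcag
Cp, plus strand, chr3:20010840-20011089: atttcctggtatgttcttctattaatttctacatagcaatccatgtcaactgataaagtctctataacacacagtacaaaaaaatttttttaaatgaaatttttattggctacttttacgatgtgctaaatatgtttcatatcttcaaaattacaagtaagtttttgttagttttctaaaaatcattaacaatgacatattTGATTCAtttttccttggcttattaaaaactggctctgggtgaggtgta
Gfap, minus strand, chr11:102788186-102788435: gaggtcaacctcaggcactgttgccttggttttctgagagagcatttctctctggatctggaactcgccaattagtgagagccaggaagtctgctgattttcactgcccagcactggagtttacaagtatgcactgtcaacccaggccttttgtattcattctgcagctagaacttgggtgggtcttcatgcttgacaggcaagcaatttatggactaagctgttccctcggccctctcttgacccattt
Lad1, plus strand, chr1:135746082-135746331: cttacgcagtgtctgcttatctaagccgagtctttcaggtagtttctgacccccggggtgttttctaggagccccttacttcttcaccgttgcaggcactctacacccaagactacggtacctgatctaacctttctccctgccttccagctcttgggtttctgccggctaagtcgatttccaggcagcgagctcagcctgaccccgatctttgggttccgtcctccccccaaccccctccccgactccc

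The libraries held 52740545 to 59411044 counts each. APB5 replicate 3 stood apart from the other 11, with a score of 126.6 on the first principal component against -53.77 to 25.62, and the member tests and list medians that rest on it are given with and without it. Xist, the RNA of the inactive X chromosome in female cells, had 47210 to 141589 counts in 5 libraries (3 IgG, 1 APB5, 1 APB5+Mino) and 5 to 38 in the other 7. The labels give no sex. Genes of the Y chromosome summed to 1 to 6 counts in the 5 libraries high in Xist and to 9336 to 13390 in the other 7. By these RNAs the 5 libraries came from females and the 7 from males, so sex goes with Xist below and was not balanced between the groups. Since all IgG libraries were high in Xist, the only APB5 library alike in this was replicate 3, and no IgG+Mino library was. The Müller glia markers, led by Glul, summed to 3400 to 4610 CPM over the 12 libraries, and the markers of inner retinal neurons, led by Gad1, to 891 to 1050. The targeted gene Pdgfrb had 12.8 to 20.1 CPM (read counts scaled to library size with TMM) in IgG, 15.4 and 16.3 in APB5 replicates 1 and 2, and 38 in APB5 replicate 3 (log2 fold change 0.60, adjusted P = 0.707 by edgeR). An antibody against the protein need not change this RNA.

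**Figure D1:**
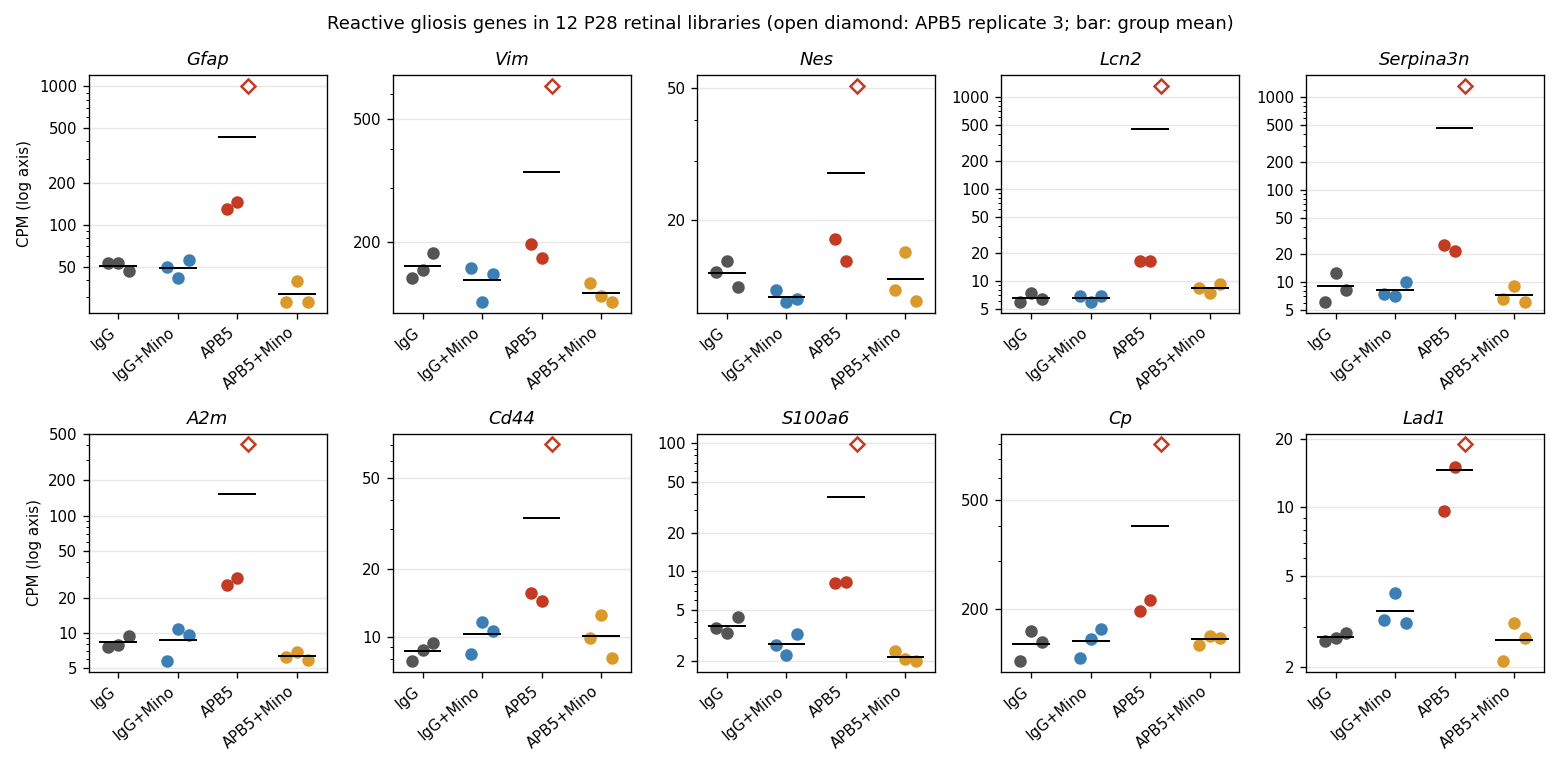
CPM (log axis, its own range in each panel) of each of the 10 genes in the 12 libraries by group; points are libraries, bars are group means, and the open diamond is APB5 replicate 3. In each panel APB5 replicate 3 is the highest library, from 1.25 times the highest of the other 11 for Lad1 to 79.9 times for Lcn2.

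The intermediate filament genes were all highest in APB5 replicate 3, but in the other 2 APB5 libraries Gfap alone of the 3 lay above the IgG libraries by more than their spread. Gfap (chr11:102778159-102791738, minus strand, 9 exons) encodes the filament protein of astrocytes and reactive Müller cells. Its level was 52.7, 52.9 and 46.3 CPM in IgG, 50, 41.1 and 56.1 in IgG+Mino, 129.7, 146.6 and 1010.0 in APB5, and 27.9, 39.1 and 27.6 in APB5+Mino. Every APB5 library lay above every IgG library, and every APB5+Mino library lay below all 9 others. Group means ± SD (n = 3) were 50.6 ± 3.75 in IgG, 49.1 ± 7.58 in IgG+Mino, 429 ± 503 in APB5 and 31.6 ± 6.58 in APB5+Mino, and APB5 replicates 1 and 2 alone averaged 2.73 times the IgG mean.

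Vim (chr2:13578738-13587639, plus strand), which encodes vimentin, the main filament protein of Müller cells in health, ranged from 154.2 to 185.6 CPM in IgG and from 128.8 to 165.6 in IgG+Mino. It was at 198, 177.7 and 637.7 in APB5, so that APB5 replicate 2 lay within the IgG range, and at 128.5 to 148.7 in APB5+Mino. Nes (chr3:87878385-87887758, plus strand) encodes nestin, a filament protein of neural progenitors that returns in reactive glia. Its level was 12.5 to 15 CPM in IgG, 11.3 to 12.2 in IgG+Mino, 17.5, 15.01 and 50.8 in APB5 and 11.4 to 15.9 in APB5+Mino. Both genes thus stood out in 1 APB5 library, and their mean in APB5 replicates 1 and 2 was 1.12 times (Vim) and 1.18 times (Nes) the IgG mean.

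The genes of secreted acute-phase proteins and protease inhibitors included the 3 with the widest range over the 12 libraries, Lcn2, Serpina3n and A2m. Lcn2 (chr2:32274645-32278264, minus strand) encodes lipocalin-2, an iron-siderophore binding protein made by reactive astrocytes, epithelia and neutrophils. Lcn2 was at 5.89, 7.44 and 6.39 CPM in IgG, 6.93, 5.88 and 6.92 in IgG+Mino, 16.4, 16.6 and 1325 in APB5, and 8.41, 7.42 and 9.19 in APB5+Mino. APB5 replicates 1 and 2 were close to each other at 2.51 times the IgG mean, while replicate 3 was at 202 times that mean.

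Serpina3n (chr12:104372810-104380597, plus strand), a serine protease inhibitor of a mouse gene cluster with close relatives between which reads can be divided, was also highest in the 3 APB5 libraries. Its level was 6.12, 12.6 and 8.17 CPM in IgG, 7.49, 7.14 and 9.95 in IgG+Mino, 25.2, 21.5 and 1341 in APB5, and 6.52, 9.18 and 6.05 in APB5+Mino. The IgG libraries had a mean of 8.98 ± 3.33 CPM (SD, n = 3), the widest spread of the 10 genes relative to the mean in that group. A2m (chr6:121612335-121656186, plus strand), the broad protease inhibitor alpha-2-macroglobulin, was at 7.57, 7.91 and 9.34 CPM in IgG, 5.74, 10.7 and 9.65 in IgG+Mino, 25.5, 29.2 and 405.5 in APB5, and 6.18, 6.87 and 5.87 in APB5+Mino. APB5 replicates 1 and 2 averaged 3.31 times the IgG mean of A2m. Cp (chr3:20011090-20063930, plus strand) encodes ceruloplasmin, a copper ferroxidase that Müller cells also make, and ran from 130.0 to 167 CPM in IgG and from 133.8 to 169.7 in IgG+Mino, at 197.5, 216 and 793.9 in APB5 and from 148.3 to 160.7 in APB5+Mino.

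Of the remaining members, Cd44 (chr2:102641486-102732010, minus strand) encodes the hyaluronan receptor on Müller cell processes and on leukocytes. It was at 7.83 to 9.45 CPM in IgG, 8.45 to 11.7 in IgG+Mino, 15.7, 14.4 and 70.6 in APB5, and 8.05 to 12.4 in APB5+Mino. S100a6 (chr3:90520140-90535843, plus strand), a calcium-binding protein of astrocytes and epithelia, was at 3.58, 3.32 and 4.4 CPM in IgG, 2.68, 2.21 and 3.23 in IgG+Mino, 8.15, 8.31 and 97.3 in APB5, and 2.4, 2.06 and 1.99 in APB5+Mino. For both genes every APB5 library lay above every library of the other 3 groups.

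Lad1 (chr1:135746332-135761080, plus strand) encodes ladinin-1, an anchoring filament protein of basement membranes. It was at 2.61, 2.7 and 2.82 CPM in IgG, 3.2, 4.23 and 3.14 in IgG+Mino, 9.64, 15.1 and 18.9 in APB5, and 2.13, 3.11 and 2.69 in APB5+Mino. Lad1 was the member for which the APB5 libraries were most alike, with an SD of 31.9% of the mean against 72% to 167% for the other 9. It was also the one for which APB5 replicate 3 differed least from replicates 1 and 2, at 1.53 times their mean against 3.13 to 80.4 times.

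The comparison of APB5 with IgG asked which genes changed after the antibody. All 10 genes had higher fitted values in APB5, with a median log2 fold change of 2.77 against -0.002 over the 20350 genes tested. A gene was called when its adjusted P did not exceed 0.05 and it changed by 1 or more on the log2 scale. None was called by edgeR's quasi-likelihood test, which called 0% of all genes in this contrast. By that test 8 of the 10 had an unadjusted P under 0.05, against 1472 of the 20350 genes. Lad1 came nearest, at 2.42 (SE 0.264, adjusted P = 0.277 by edgeR), the second smallest P of all genes. Gfap had 3.11 (SE 0.75), Lcn2 6.13 (SE 1.48), Serpina3n 5.72 (SE 1.4), A2m 4.24 (SE 0.993) and S100a6 3.35 (SE 0.926), each with an adjusted P of 0.664 by edgeR. For 8 genes every APB5 library lay above every IgG library, against 7.79% of all genes, and the 2 that overlapped were Vim and Nes. DESeq2 called Lad1 alone (adjusted P = 4.88e-13), against 0.388% of genes called upregulated, and gave no adjusted P for Lcn2, Serpina3n, A2m and S100a6.

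Without APB5 replicate 3, the median of the 10 genes was 1.22 against 0.000 over all genes, and 4 of the 10 were upregulated in APB5 by edgeR, against 0.0868% of genes. These were A2m with 1.72 on the log2 scale (SE 0.154, adjusted P = 0.0121), Gfap with 1.45 (SE 0.124, adjusted P = 0.0117), Lad1 with 2.18 (SE 0.221, adjusted P = 0.0201) and Lcn2 with 1.32 (SE 0.16, adjusted P = 0.043), all by edgeR. Serpina3n (1.38, SE 0.281) and S100a6 (1.12, SE 0.188) had similar values and were not called, at adjusted P of 0.316 and 0.189 by edgeR. Vim had 0.17 (SE 0.126), Nes 0.24 (SE 0.151), Cp 0.47 (SE 0.137) and Cd44 0.79 (SE 0.153), with adjusted P of 0.299 to 0.904 by edgeR. Among the filament genes, Gfap was thus called in these libraries, while the values of Vim and Nes lay within 2 SE of 0. The remaining APB5 libraries were low in Xist and all IgG libraries were high in it, so whatever goes with Xist and the antibody cannot be told apart in this contrast. When the log2 CPM of Xist entered the fit of the 12 libraries, APB5 replicate 3 included, all 10 genes were called upregulated in APB5, with log2 fold changes of 1.40 (Nes) to 6.75 (Lcn2), against 4.99% of genes. Within groups, Xist was high in some libraries and low in others only in APB5 and APB5+Mino, and the only high APB5 library was replicate 3. That fit therefore cannot separate Xist from what set this library apart. In IgG+Mino against IgG it gave Serpina3n 3.46 and Lcn2 4.06, against -0.13 and 0.001 without Xist.

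**Figure D2:**
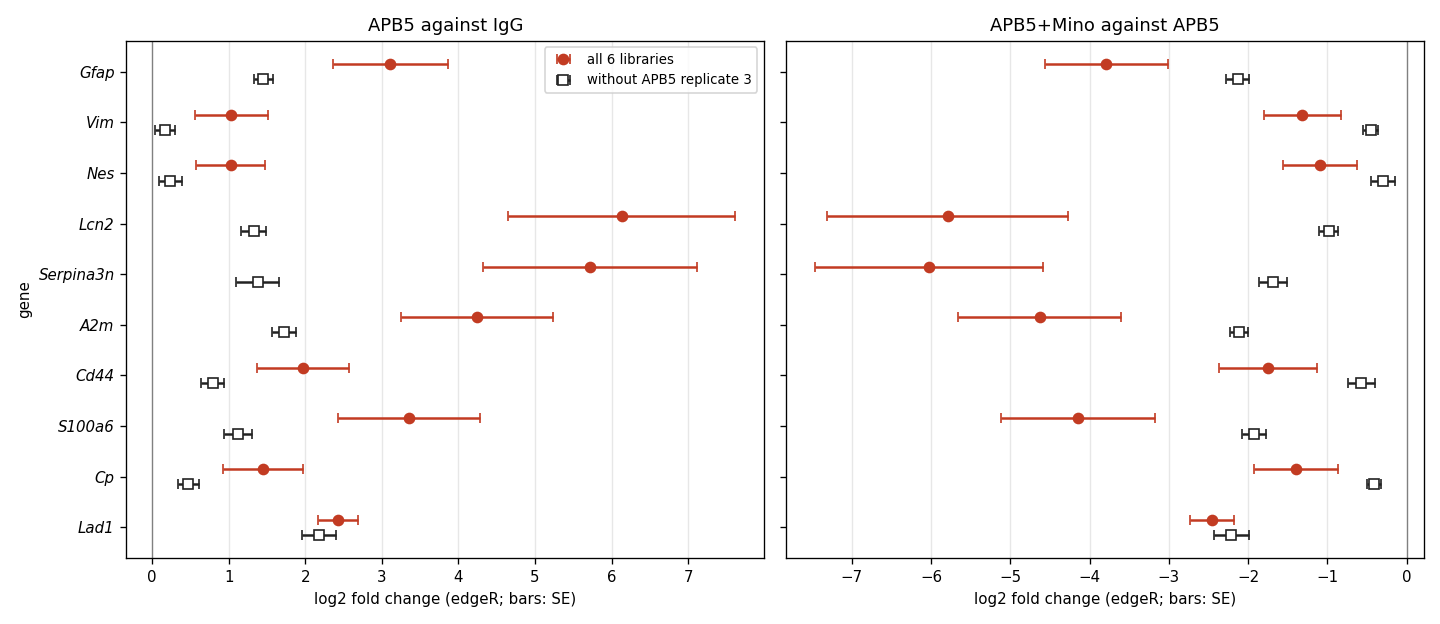
Log2 fold change of each gene in APB5 against IgG (left) and APB5+Mino against APB5 (right), with bars for the SE; filled circles use all 6 libraries and open squares leave out APB5 replicate 3. Without that library Lcn2 moves from 6.13 to 1.32 on the left while Lad1 moves from 2.42 to 2.18, and the error bars shrink for all 10 genes.

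The marker lists of other cell types moved in the same library. The summed level of 12 microglia and macrophage markers was 32.1 to 52.4 CPM in IgG, 58 and 47.7 in APB5 replicates 1 and 2, 470.0 in APB5 replicate 3 and 15.2 to 18.3 in APB5+Mino. In APB5 replicate 3, 5 markers of rod photoreceptors summed to 6360 CPM, 0.27 times the IgG mean, against 18100 to 27900 CPM in the other 11 libraries. There the pericyte and smooth muscle markers summed to 469 CPM, 4.23 times the IgG mean, against 134 and 132 in APB5 replicates 1 and 2 and 103 to 117 in IgG. The pigment epithelium markers, led by Ttr, summed to 7.09 times the IgG mean in APB5 replicate 3. Single Müller glia markers had log2 fold changes of -0.17 to 1.15 in APB5 against IgG by edgeR. In APB5+Mino against APB5 they ran from -1.89 to 0.25, with 6 of the 8 lower, against 10438 of the 20281 genes tested. In APB5+Mino against IgG+Mino they ran from -0.68 to 0.15, with 7 of the 8 lower, against 10249 of the 20049 genes tested. Their sums were 3400 to 3610 CPM in APB5+Mino and 4010 to 4330 in IgG+Mino. The 8 Müller glia markers summed to 3620 CPM in APB5 replicate 3, within the IgG range of 3590 to 4610, and the 4 retinal astrocyte markers to 126 CPM against 61.7 to 86.2 in IgG. Single astrocyte markers had log2 fold changes of -0.23 to 1.64 in APB5 against IgG by edgeR, with 3 of the 4 higher. Of these, Pdgfra had 621 to 761 counts in IgG, 1263 and 1323 in APB5 replicates 1 and 2, and 4393 in APB5 replicate 3. Neutrophil markers, which matter for Lcn2, summed to 3.32 CPM in that library and to 0.127 to 0.518 in the others. Of those 8 markers, Ly6g, Elane, Camp and Ltf had at most 3 counts in every library, and S100a8 and S100a9 had 114 and 96 counts in APB5 replicate 3. Of the remaining lists, endothelial markers in APB5 replicate 3 summed to 1.36 times and markers of inner retinal neurons to 1.07 times the IgG mean. Markers of cornea, conjunctiva and epithelium summed to 3.5 CPM there, 1.01 times an IgG mean that 1 library raised. Their sum was 8.24 CPM in IgG replicate 2 and 1.07 and 1.05 in IgG replicates 1 and 3. It was 1.1 and 1 in APB5 replicates 1 and 2, 1.01 to 1.13 in IgG+Mino and 0.607 to 1.09 in APB5+Mino. Lens markers in APB5 replicate 3 summed to 0.232 times the IgG mean, with lens sums anywhere from 3.76 to 1660 CPM over the libraries. The part of these cells in the levels of the 10 genes was not tested.

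**Figure D3:**
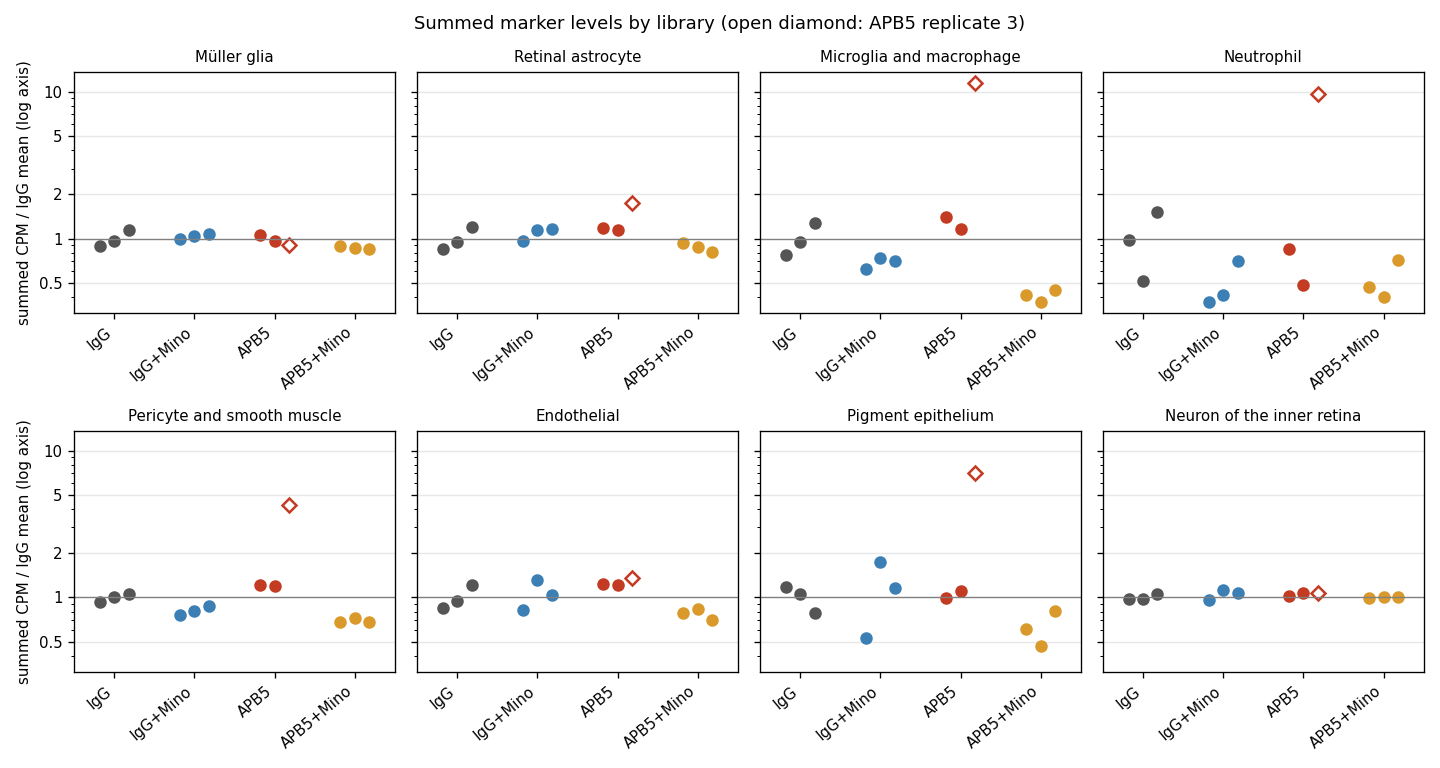
Summed CPM of 8 marker lists in each library, divided by the IgG mean (log axis), by group; points are libraries and the open diamond is APB5 replicate 3. The Müller glia sum runs from 0.84 to 1.14 times the IgG mean and is below 1 in every APB5+Mino library. In APB5 replicate 3 the microglia and macrophage sum reaches 11.4 times and the pigment epithelium sum 7.09 times the IgG mean.

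The comparison of APB5+Mino with APB5 asked what minocycline changed after the antibody, and it used the same 3 APB5 libraries. All 10 genes had lower fitted values in APB5+Mino, with a median log2 fold change of -3.13 against -0.02 over the 20281 genes tested, and for 9 of them (all but Nes) every APB5+Mino library lay below every APB5 library, against 22.8% of all genes. By edgeR 1 gene of the 10 was downregulated, against 1.66% of genes called. This was Lad1 at -2.46 (SE 0.279, adjusted P = 0.043 by edgeR), or 0.182 times the APB5 level. Gfap had -3.79 (SE 0.778, adjusted P = 0.0514 by edgeR), just short of the threshold, A2m -4.63 (SE 1.03, adjusted P = 0.057), S100a6 -4.15 (SE 0.972, adjusted P = 0.0575), Serpina3n -6.02 (SE 1.44, adjusted P = 0.0698) and Lcn2 -5.79 (SE 1.52, adjusted P = 0.08). Vim, Nes, Cd44 and Cp had -1.09 to -1.75 with adjusted P of 0.104 to 0.146 by edgeR.

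In this contrast the deviations of libraries with the same replicate number correlated weakly (0.116 to 0.169). A fit with the numbers as pairs was therefore added, though the labels state no pairs. Values not said to come from the blocked fit are from fits without pairs. With pairs as a block no gene of the 10 and none of all genes was called, with Lad1 at -2.42 (adjusted P = 0.0641 by edgeR). The call of Lad1 was also lost without APB5 replicate 1 (-2.69, adjusted P = 0.105) and without APB5+Mino replicate 1, 2 or 3 (-2.32, -2.58 and -2.47, adjusted P of 0.117, 0.214 and 0.205 by edgeR). DESeq2 called 5 genes downregulated, Gfap, Vim, Cd44, Cp and Lad1, against 4.97% of genes, and gave no adjusted P for Lcn2, Serpina3n, A2m and S100a6. The 12 microglia and macrophage markers were all lower in APB5+Mino as well (median log2 fold change -2.90, and -1.46 without APB5 replicate 3), 1 of them called by edgeR with all libraries and 6 without APB5 replicate 3, and their part in the values of the 10 genes was not tested.

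Without APB5 replicate 3, the median was -1.34 against -0.007 over all genes, and edgeR called 5 of the 10 genes downregulated in APB5+Mino, against 2.53% of genes. The log2 fold changes were -2.22 for Lad1 (SE 0.22, adjusted P = 0.000823), -2.14 for Gfap (SE 0.148, adjusted P = 0.000244), -2.12 for A2m (SE 0.115, adjusted P = 9.4e-05), -1.92 for S100a6 (SE 0.151, adjusted P = 0.000419) and -1.69 for Serpina3n (SE 0.173, adjusted P = 0.000897), all by edgeR. Lcn2 had -0.98 (SE 0.121, adjusted P = 0.00185), just short of the fold limit, and Vim, Cd44 and Cp had -0.41 to -0.57 with adjusted P of 0.00996 to 0.0336. Nes had -0.30 (SE 0.153, adjusted P = 0.166 by edgeR). Without APB5 replicate 2, which leaves replicate 3 in the group, 6 genes were called, Gfap (-4.20), Lcn2 (-6.36), Serpina3n (-6.58), A2m (-5.12), S100a6 (-4.63) and Lad1 (-2.44), against 5.04% of genes called downregulated. Among the libraries low in Xist alone (2 in each group, chosen after seeing the data), 6 genes were called, against 1.89% of genes, namely Gfap, Lcn2, Serpina3n, A2m, S100a6 and Lad1, with log2 fold changes of -1.06 (Lcn2) to -2.23 (Lad1) and adjusted P of 0.00173 to 0.00943 by edgeR.

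After IgG, the 10 genes had fitted values within 0.5 on the log2 scale of each other with and without minocycline. None was called in IgG+Mino against IgG by edgeR, which called 0.0298% of genes, and DESeq2 called none. No gene of the 10 had an unadjusted P under 0.05 by edgeR, against 1686 of the 20143 genes tested. The log2 fold changes ran from -0.47 (S100a6, SE 0.22) to 0.38 (Lad1, SE 0.203), with adjusted P of 0.585 to 0.999 by edgeR and a median of -0.02 against -0.01 over all genes. The 2 groups did not overlap for 3 of the 10 genes, lower with minocycline for Nes and S100a6 and higher for Lad1, against 14.4% of all genes. Xist was high in every IgG library and low in every IgG+Mino library, and what goes with Xist cannot be told apart from minocycline here.

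After minocycline, APB5 retinas were near the IgG+Mino level for most of these genes. Gfap lay below it, with an adjusted P that depended on single libraries. No gene of the 10 was called in APB5+Mino against IgG+Mino by edgeR, which called 1.23% of genes, and DESeq2 called none. An unadjusted P under 0.05 by edgeR was found for 2 of the 10, against 5868 of the 20049 genes tested. Gfap was at 27.6 to 39.1 CPM in APB5+Mino and 41.1 to 56.1 in IgG+Mino, which gave -0.64 on the log2 scale (SE 0.16, adjusted P = 0.0457 by edgeR) that passed on P and missed the fold limit. Lcn2 was at 7.42 to 9.19 CPM against 5.88 to 6.93, which gave 0.34 on the log2 scale (SE 0.139, adjusted P = 0.139 by edgeR), with no overlap between the groups. Every APB5+Mino library lay below every IgG+Mino library for 2 of the 10, Gfap and Lad1, against 17.6% of all genes. Lad1 had -0.41 (SE 0.203, adjusted P = 0.21 by edgeR), A2m -0.46 (SE 0.212, adjusted P = 0.187 by edgeR), and the other 6 had -0.33 (S100a6) to 0.18 (Nes) with adjusted P of 0.298 to 0.963. Among the libraries low in Xist alone, Gfap had -0.55 with an adjusted P of 0.185 by edgeR. Its adjusted P by edgeR was also above 0.05 without IgG+Mino replicate 3 (0.139) and without APB5+Mino replicate 1 or 2 (0.109 and 0.0778). With Xist in the fit Gfap had -0.99 (adjusted P = 0.246 by edgeR). On adjusted P alone, 1621 genes passed in this contrast.

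**Figure D4:**
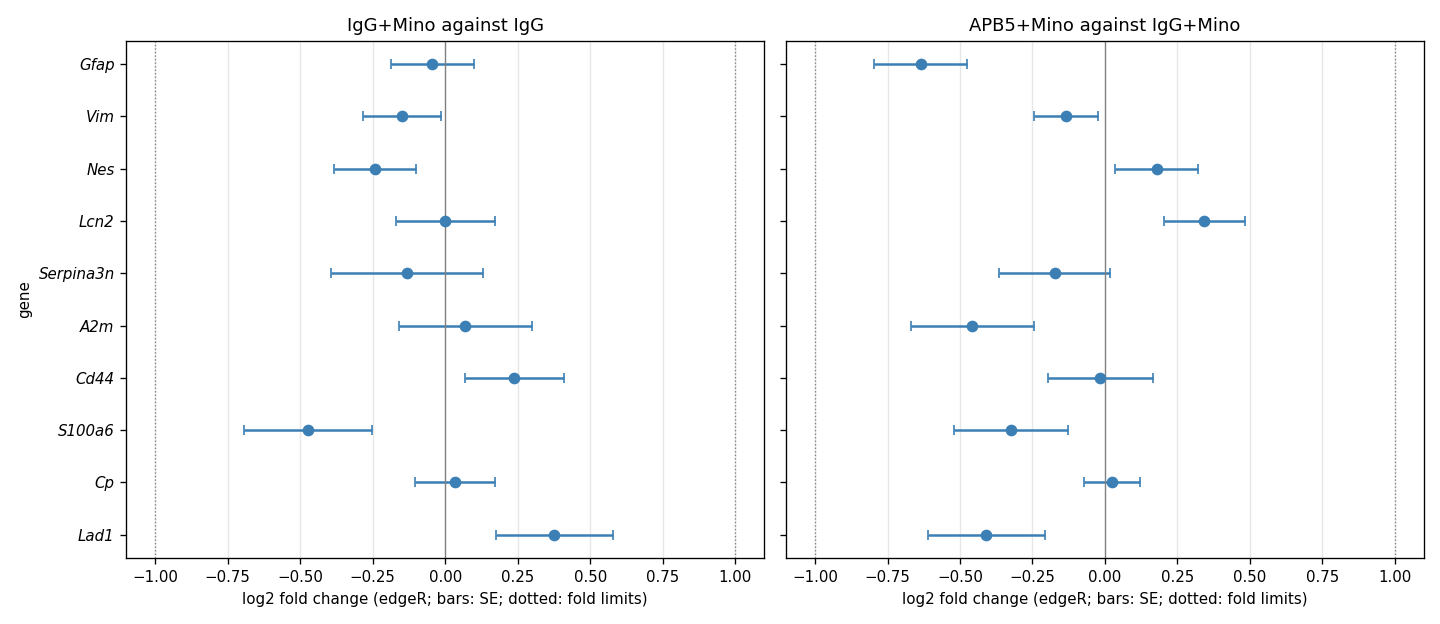
Log2 fold change of each gene in IgG+Mino against IgG (left) and APB5+Mino against IgG+Mino (right), with bars for the SE and dotted lines at the fold limits of 1 in either direction. All 20 values lie between the limits, and the lowest is Gfap on the right at -0.64.

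The interaction of antibody and minocycline asks whether minocycline changed a gene differently after APB5 than after IgG. Its IgG part compares libraries all high in Xist with libraries all low in it, so sex enters the term and cannot be told apart there. All 10 interaction terms were negative, with a median of -3.24 against -0.024 over the 21228 genes tested. Lad1 was called, at -2.82 (SE 0.345, adjusted P = 0.0225 by edgeR), as 1 of 3 genes or 0.0141%. The other 9 had adjusted P of 0.132 (Gfap, -3.73, SE 0.839) to 0.406 (Nes, -0.84, SE 0.513) by edgeR. Without APB5 replicate 3, the median was -1.23 against -0.032 over all genes, and 4 genes were called, against 0.241% of genes, with Lad1 at -2.60 (adjusted P = 0.00435), A2m at -2.20 (adjusted P = 0.00954), Gfap at -2.10 (adjusted P = 0.00435) and S100a6 at -1.46 (adjusted P = 0.0407), all by edgeR. The call of Lad1 was lost without IgG replicate 1 or 2 (adjusted P of 0.101 and 0.12), IgG+Mino replicate 2 or 3 (0.0803 and 0.0527) and APB5+Mino replicate 1 or 3 (0.103 and 0.152), at values of -2.67 to -2.90. Without APB5 replicate 2, Gfap (-4.14, adjusted P = 0.0446 by edgeR) and A2m (adjusted P = 0.0488) were called beside Lad1, against 0.345% of genes called lower.

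Other genes known from reactive glia were read beside the 10, from a list of 39 drawn from what is known of reactive glia, with earlier results of these data known. All 39 had higher fitted values in APB5 than in IgG (median log2 fold change 2.02), against 10103 of the 20350 genes tested. None was called by edgeR, which called 0% of all genes. An unadjusted P under 0.05 by edgeR was found for 27 of the 39, against 1472 of the 20350. In APB5+Mino against APB5, 36 of the 39 were lower (median -2.16), against 10438 of the 20281 genes tested. By edgeR, which called 166 of the 20281 downregulated, 4 of the 39 were called downregulated. Among these, Edn2 (endothelin-2, released by injured photoreceptors) was at 29.9, 37.6 and 85.2 CPM in APB5 and 3.01 to 6.24 in APB5+Mino, at -3.56 on the log2 scale (adjusted P = 0.043 by edgeR). Fgf2, a growth factor that photoreceptors and Müller cells make after injury, was at 78.8, 104.7 and 152.6 CPM in APB5 and 27.5 to 37.8 in APB5+Mino (-1.79, adjusted P = 0.043 by edgeR). Id3, a transcription regulator downstream of BMP signals, was lower by 2.10 on the log2 scale (adjusted P = 0.0461 by edgeR), and Hmox1, the heme-degrading oxygenase, by 2.54 (adjusted P = 0.0494 by edgeR). Id3 was at 13.3, 18.9 and 68.25 CPM in IgG and 32.8, 21 and 54.8 in APB5, so these groups overlapped. Its log2 fold change in APB5 against IgG was 0.135 (adjusted P = 0.959 by edgeR), and -0.314 without APB5 replicate 3. In the blocked fit none of these 4 was called (adjusted P = 0.0641 each). For Edn2 and Fgf2, APB5 replicates 1 and 2 lay above every IgG library, at 4.07 and 3.60 times the IgG mean. This was not particular to them. Every APB5 library lay above every IgG library for 8 of the 10 members and for further genes of the list, though not for all, against 7.79% of all genes.

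Without APB5 replicate 3, the list had a median of 0.87 in APB5 against IgG with 3 genes upregulated, against 0.0868% of all genes. These were Fgf2 (1.85, adjusted P = 0.0189), Mt1 (1.16, adjusted P = 0.0248) and Mt2 (1.59, adjusted P = 0.0121), all by edgeR. The last 2, named after their values were seen, encode metallothioneins, metal-binding stress proteins. In APB5+Mino against APB5 the list then had a median of -0.93 with 19 genes downregulated by edgeR, against 2.53% of all genes. Between APB5+Mino and IgG+Mino, 36 of the 39 could be tested, the median was -0.09, and 1 was called, against 1.23% of all genes. This was Clcf1, a cytokine of the interleukin-6 family, at 6.43 to 7.28 against 2.32 to 3.77 CPM (log2 fold change 1.25, adjusted P = 0.0163 by edgeR). That call was lost in the libraries low in Xist (1.28, adjusted P = 0.087 by edgeR) and with Xist in the fit (0.88, adjusted P = 0.27 by edgeR). In IgG+Mino against IgG none of the 37 tested was called by edgeR or DESeq2, and the median was 0.009. An unadjusted P under 0.05 by edgeR was found for 1 of the 37, against 1686 of the 20143 genes tested. No gene of the list was called in the interaction by edgeR with all libraries, against 0.0141% of all genes, and the median was -2.14. An unadjusted P under 0.05 by edgeR was found for 25, against 3640 of the 21228 genes tested. Without APB5 replicate 3, 6 were called, against 0.241% of genes called lower, and the median was -0.80.

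**Figure D5:**
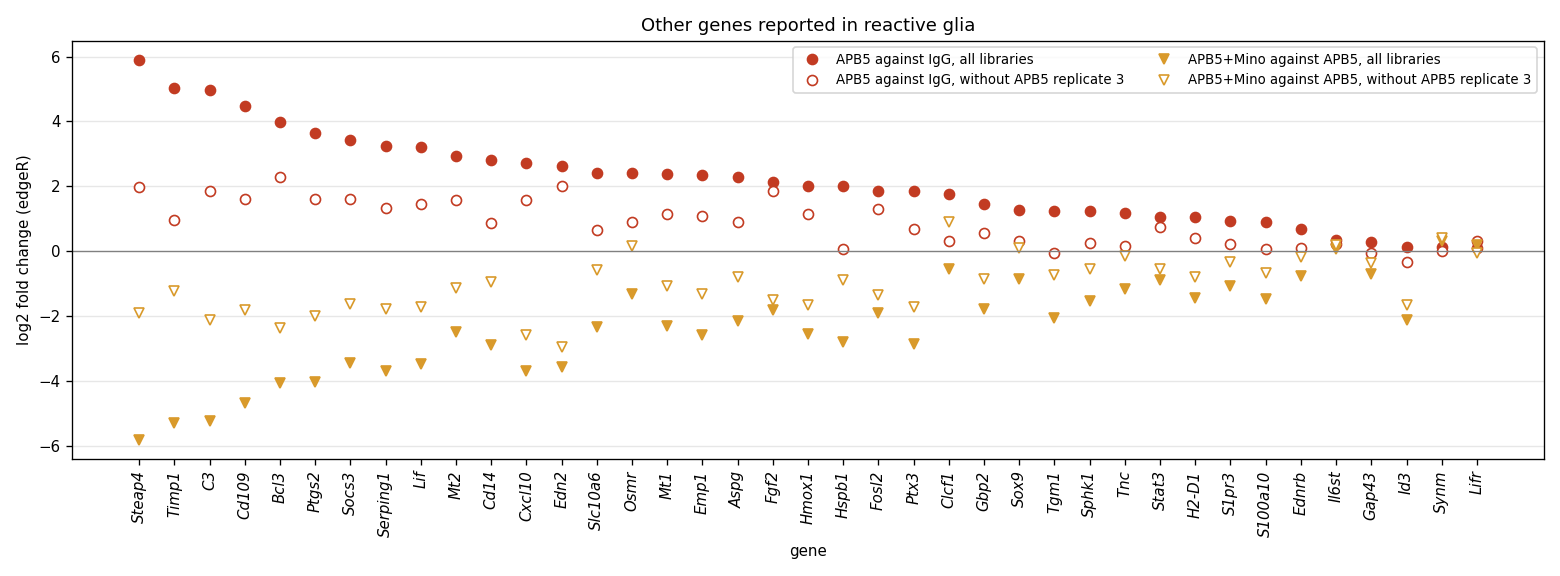
Log2 fold change of the 39 other genes of reactive glia in APB5 against IgG (red circles) and APB5+Mino against APB5 (yellow triangles), ordered by the former; open symbols leave out APB5 replicate 3. All 39 filled circles lie above 0, and leaving that library out brings the median from 2.02 to 0.87.

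The order of the 10 genes by level differed between libraries. Per kilobase of the canonical transcript, Vim stood highest in IgG at 76.4 CPM per kb, followed by Cp at 36 and Gfap at 17.6, and Lad1 stood lowest at 0.903. In APB5+Mino the first 3 were the same, at 62.6, 37.4 and 11, followed by Lcn2 at 9.12. In APB5 replicate 3 Lcn2 led at 1448 CPM per kb and Serpina3n came second at 596, ahead of Gfap at 351 and Vim at 291. The transcript lengths come from GENCODE and not from the annotation used for counting.

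The authors' tables also give a mean normalized count per transcript and group, pooled over libraries and so without an error. Of 30 transcripts that RefSeq lists for the 10 genes, 29 were found. One transcript held 96.4% of the Gfap signal in IgG and 95.5% in APB5. For Cp, 1 transcript held 40.2% of the signal in IgG, 66.6% in APB5 and 38.7% in APB5+Mino, while another held 30.8%, 15.3% and 19.8%. The pooled APB5 values include replicate 3 and cannot be given without it.

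The 45 pairs of the 10 genes had Pearson correlations of log2 CPM of 0.716 to 0.989 (median 0.945), and of 0.33 to 0.944 (median 0.741) over the 11 libraries without APB5 replicate 3. Of 15802 genes with a mean of at least 1 CPM, the 5 most like Gfap that are no members were Rab31 (r = 0.985), Serpinf1 (0.983), Slc15a3 (0.982), Lsp1 (0.978) and Cryzl2 (0.977), over 12 libraries. Without APB5 replicate 3 their correlations with Gfap were 0.945, 0.959, 0.929, 0.93 and 0.966 over 11 libraries. These libraries share groups and differ in the marker levels above, and the values are a description.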

How the data were processed

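RNA of P28 mouse retinas was sequenced in 12 libraries from stranded mRNA preparations (NextSeq 2000, single reads). Per the labels, base calls were converted with bcl2fastq 2.20 and processed with DRAGEN on mm39; the version of DRAGEN, and whether it counted by strand, are not given in the sources used here. The deposited gene table holds each value as a raw read count, with 3 repeated columns identical to the ones they repeat. The deposited transcript tables hold a signal per group, the authors' mean normalized count, which was used only for isoform shares; their columns of fold changes and P values, and the gene tables of the same kind, were not used.

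Members and gene lists were chosen with earlier results of these data known. Counts were tested with edgeR 4.0.16 (quasi-likelihood, TMM, filterByExpr defaults, prior count 2, Benjamini-Hochberg over all genes tested; R 4.3.3, limma 3.58.1), two-sided, in fits of the 2 groups compared, and the interaction in all 12 libraries; DESeq2 1.42.0 was an alternative. A call needs an adjusted P of at most 0.05 and an absolute log2 fold change of at least 1. The edgeR step was tested on simulated data. Depth was 52740545 to 59411044 counts, where 3 counts equal 0.0448 to 0.0587 CPM. Genes named are the 10 members, of the other reactive glia list up to 3 called genes per direction and comparison by smallest P, and the 5 genes with a mean of at least 1 CPM whose log2 CPM correlated best with Gfap, with Xist and Pdgfrb as checks; Hmox1, Mt1 and Mt2 were added after their values were seen. Fits without APB5 replicate 3 over 11 libraries, and over libraries low in Xist, were chosen after seeing the data. Marker lists covered Müller glia, retinal astrocytes, microglia and macrophages, neutrophils, endothelial cells, pericytes and smooth muscle, cornea with conjunctiva and epithelium, pigment epithelium, lens, rods and neurons of the inner retina; 1 gene is not reported here.

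Deviations from group means of same-numbered libraries correlated at 0.116 to 0.169 in APB5+Mino against APB5 (3 pairs). A fit with the numbers as pairs was therefore added there, from the data and not from the labels, and the main fits hold no pairs. In both of these groups the library high in Xist was replicate 3. In the other comparisons the lowest such correlation was -0.133 to -0.02 and the highest 0.039 to 0.174.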

Additional observations from a re-analysis of the deposited data

Results flagged for a closer look

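The interaction of antibody and minocycline was flagged for Lad1 because minocycline went with a different change after APB5 than after IgG, by a test of that difference itself. The interaction was -2.82 on the log2 scale (SE 0.345, adjusted P = 0.0225 by edgeR over all genes, n = 3 libraries in each of 4 groups). All 3 APB5+Mino libraries lay below all 3 APB5 libraries, with means of 2.64 and 14.5 CPM, and all 3 IgG+Mino libraries lay above all 3 IgG libraries, with means of 3.52 and 2.71 CPM. Lad1 had an adjusted P of 0.599 by edgeR in IgG+Mino against IgG, and these groups did not overlap for 14.4% of all genes. All IgG libraries were high in Xist and all IgG+Mino libraries low, so sex cannot be told apart from minocycline in that part of the interaction.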

How the results depend on the processing

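With 3 libraries a group and 1 APB5 library far from the rest, the number of the 10 genes called depends on the fit more than their direction does: in APB5 against IgG, APB5+Mino against APB5 and the interaction no gene changed sign under any alternative run. In APB5 against IgG, 0 genes were called, 1 with no count filter, by DESeq2 or with all 12 libraries in the fit, 5 with 11 libraries, 10 with Xist as a covariate, and 0 to 4 when 1 library was left out. In APB5+Mino against APB5, 1 was called, 0 by library size only or with the replicate block, 2 with at least 10 counts in every library, 4 with no filter, 5 by DESeq2 or with 11 libraries, 6 in libraries low in Xist, 9 with Xist as a covariate or all 12 libraries, and 0 to 6 with 1 library left out. In the interaction 1 was called, 2 with no filter, 9 with Xist as a covariate, and 0 to 4 with 1 library left out. In APB5+Mino against IgG+Mino 0 were called and 1 with no fold threshold. The counts over all genes moved as well. In APB5 against IgG they were 0, 5 with no filter, 7 with all 12 libraries, 37 with 11, 87 by DESeq2 and 1183 with Xist as a covariate. In APB5+Mino against APB5 they were 336, 0 with the block, 5 by library size only, 458 with at least 10 counts, 568 with no filter, 572 in libraries low in Xist, 647 with 11 libraries, 1531 by DESeq2, 1623 with all 12 libraries, 1922 with Xist as a covariate and 0 to 1789 with 1 library left out. In the interaction they were 3, 34 with no filter, 395 by DESeq2, 932 with Xist as a covariate and 0 to 113 with 1 library left out. In IgG+Mino against IgG they were 6, 15 with no filter, 23 by DESeq2, 1 with at least 10 counts or 11 libraries, and 0 with Xist as a covariate or all 12 libraries. For APB5+Mino against IgG+Mino they were 246, 1621 with no fold threshold, 2 in libraries low in Xist, 0 with Xist as a covariate or all 12 libraries, and 0 to 458 with 1 library left out. The replicate block changed no other call of the 10 genes. The cause of these differences was not tested.

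Signs reversed in the other 2 contrasts, and no reversed value was called. In IgG+Mino against IgG these were, by library size only, Lcn2 -0.081, A2m -0.015 and Cp -0.049. With at least 10 counts Lcn2 was -0.001, and with all 12 libraries -0.009. With Xist as a covariate Gfap was 1.44, Vim 0.69, Nes 0.49, Serpina3n 3.46 and S100a6 1.52. Leaving out 1 library in turn gave Gfap -0.153 to 0.071, Lcn2 -0.072 to 0.102, Serpina3n -0.346 to 0.20, A2m -0.102 to 0.288 and Cp -0.058 to 0.125. In APB5+Mino against IgG+Mino, Cd44 was 0.014 by library size only and 0.124 in libraries low in Xist, and Nes -0.026, Lcn2 -0.454 and Cp -0.286 with Xist as a covariate. Leaving out 1 library in turn gave Cd44 -0.203 to 0.124 and Cp -0.058 to 0.088.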
